A study of Homo sapiens with 6 samples.

Results

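The genes described here encode the enzymes of glycolysis, the transporters that bring glucose in and carry lactate out, the machinery that takes pyruvate into mitochondria and oxidises it, and the response to low oxygen. The set was chosen by gene symbol as a pathway of 41 genes. Of these, 30 belong to glycolysis, transport and pyruvate handling, and 11 belong to hypoxia-inducible factor (HIF) and its response. The count table holds 18798 genes, and 40 of them are members. EGLN3 has no row, in a table whose genes all reach 10 counts summed over the 6 libraries, so its expression was not analysed here. ADM has a row with too few counts to be tested, which left 39 members among the 14797 genes tested.

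RNA was sequenced from U937, an established line of human monocytic cells. The 3 ΔNSPs libraries came from independent clones transduced with ΔNSPs plasmids, in which CTSG, ELANE and PRTN3 were depleted at the same time. These genes encode cathepsin G, neutrophil elastase and proteinase 3, the serine proteases of myeloid granules. The 3 Control libraries came from lines that had received control plasmids. Both groups grew in RPMI1640 medium with fetal bovine serum and were selected with 500 ug/ml geneticin. Each ΔNSPs library stands for 1 clone, and the labels give neither the oxygen level nor the cell density at harvest.

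Glycolysis splits glucose into pyruvate. Lactate dehydrogenase turns pyruvate into lactate, and the pyruvate dehydrogenase complex turns it into acetyl-CoA inside mitochondria. When oxygen is low, prolyl hydroxylases stop marking HIF-alpha for destruction, and HIF with its partner ARNT binds short motifs near target genes, among them many glycolytic enzymes, glucose transporters and the kinases that switch pyruvate dehydrogenase off. Myeloid cells are known for a high glycolytic flux, and transformed lines such as U937 ferment glucose even with oxygen present.

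Library totals ran from 11476619 to 13782854 counts, so 3 counts correspond to 0.214 to 0.26 CPM (CPM are counts scaled to a common library total with edgeR's TMM factors). CTSG measured 136, 111 and 45.3 CPM in ΔNSPs clones 1, 2 and 3, against 1897, 2477 and 2756 CPM in Control lines 1, 2 and 3, and it fell by 4.61 on the log2 scale (SE 0.40, adjusted p = 0.0215 by edgeR). ELANE measured 41.9, 1.89 and 27.8 CPM in the clones, against 1085, 971 and 1327 CPM in the Control lines. PRTN3 measured 0.857, 63.3 and 55.4 CPM in the clones, against 539, 147 and 244 CPM in the Control lines. All 3 targeted genes were lower in every clone than in every Control line. All 10 monocytic markers were in the table, and their summed level ran from 1255 to 2057 CPM in the clones and from 1424 to 1609 CPM in the Control lines. In bulk RNA, fewer cells in a state and less RNA per cell cannot be told apart. Markers of T and NK cells summed to 2.27 to 10.8 CPM in the clones and 3.24 to 5.37 CPM in the Control lines, with no row for CD3D, CD3E, CD3G or CD8A. Epithelial and fibroblast markers summed to 0.590 to 7.88 CPM in the clones and 4.72 to 5.88 CPM in the Control lines. B cell markers summed to 25.6 to 29.4 CPM in the clones and 24.2 to 33.6 CPM in the Control lines. Erythroid markers summed to 105 to 149 CPM in the clones and 97.3 to 171 CPM in the Control lines.

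Across the 30 genes of glycolysis, transport and pyruvate handling, the glucose transporter SLC2A1, the lactate exporter SLC16A3 and the phosphofructokinase PFKM were higher in every clone than in every Control line, and ALDOC, GPI, PFKFB4, ENO1, PDK1 and MPC2 were lower. Among the HIF and hypoxia genes all 9 that were tested had a negative fold change, with DDIT4, MXI1 and KDM3A lower in every clone than in every Control line. Neither set held a gene past the threshold of the main test. edgeR's quasi-likelihood test, adjusted over all genes tested, called 0 of 30 glycolysis members and 0 of 9 HIF and hypoxia members at an adjusted p under 0.05, where it called 0.0203% of all genes. At an unadjusted p under 0.05, 3 members were higher and 10 were lower out of 39, which is 7.69% and 25.6%, beside 9.23% and 8.6% of all genes tested. The count of lower members was 6 without Control line 2 or without Control line 3. CPM did not overlap between the groups for 3 members that were higher and 9 that were lower, which is 7.69% and 23.1%, beside 12.2% and 11.7% of all genes tested. DESeq2 called 1 member higher, SLC16A3, where it called 1.91% of all genes higher, and 4 members lower, ALDOC, DDIT4, GPI and PFKFB4, where it called 2.07% lower. limma voom called 0 members, where it called 0.0135% of all genes.

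The median log2 fold change was -0.05 over the 30 glycolysis, transport and pyruvate members and -0.24 over the 9 HIF and hypoxia members, beside 0.0023 over all genes tested. Negative fold changes were found for 27 of 39 members, made up of 18 of the 30 glycolysis, transport and pyruvate genes and all 9 HIF and hypoxia genes, beside 49.7% of all genes tested. The edgeR calls depended on which library was left out, most of all on 1 clone. Without ΔNSPs clone 1, edgeR called 6.17% of all genes, 3.04% higher and 3.13% lower, and 6 members: SLC2A1 and SLC2A3 were higher, and ALDOC, PDHA1, PDK3 and DDIT4 were lower. Without Control line 1 it called 0.131% of all genes, 0.125% lower, and 1 member, PFKFB4, which was lower. It called 0 members without clone 2 (0.0133% of all genes), without clone 3 (0.00655%) and without Control line 2 or Control line 3 (0% each).

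**Figure D1:**
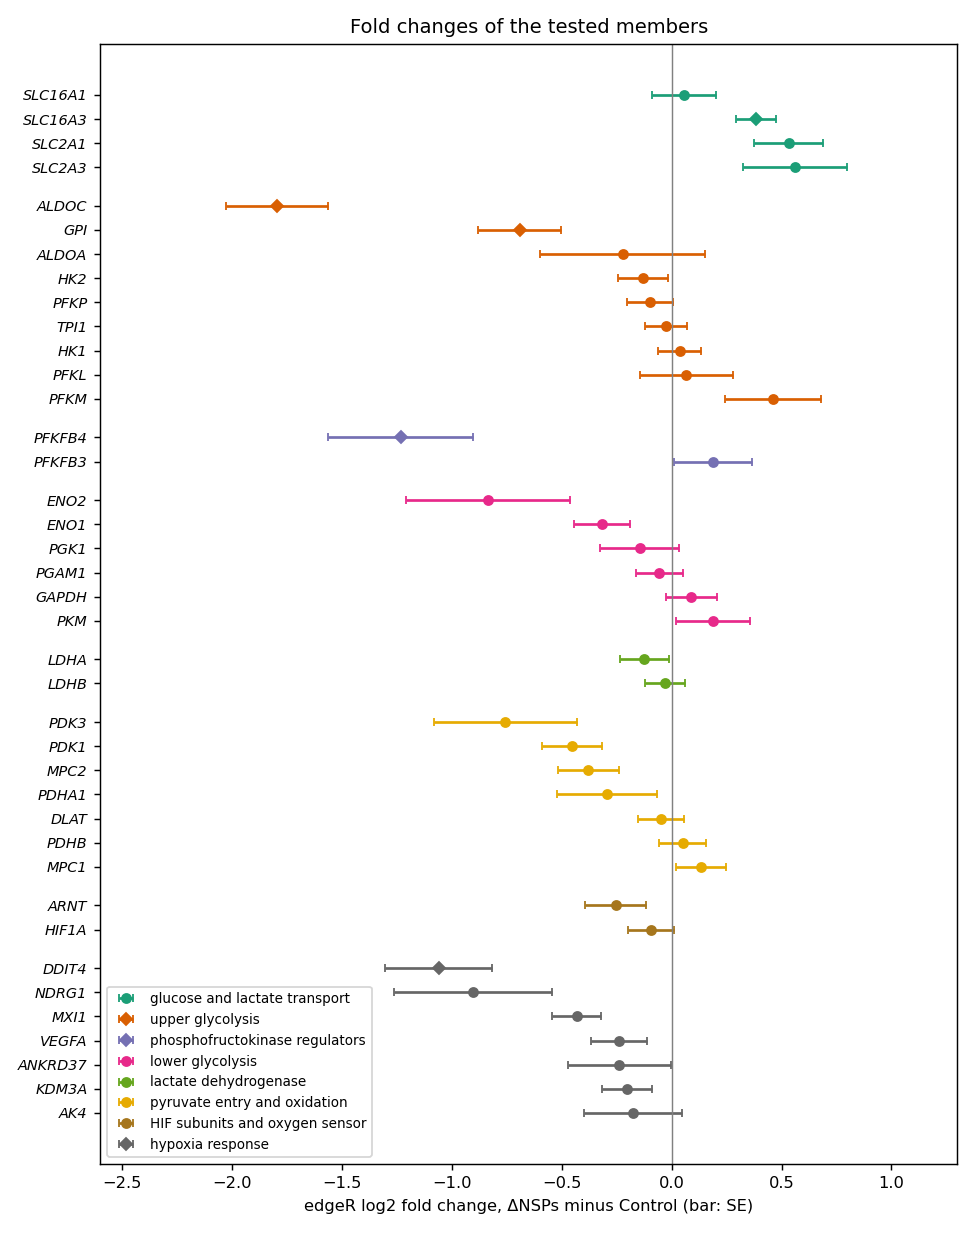
Fold change of each tested member, in blocks by role. The x axis is the edgeR log2 fold change (ΔNSPs minus Control), points are estimates, bars are 1 SE, and diamonds mark the genes that DESeq2 called. ALDOC lies farthest to the left at -1.80, the 4 transporters all lie at or above 0.06, and all 9 HIF and hypoxia genes lie below 0.

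The promoter windows of the 4 members that DESeq2 called lower are shown here, and each of these genes has a single start listed in RefSeq. The windows are from build GRCh38.p14 and run 5′ to 3′ on the gene's own strand, from 250 bases before to 50 bases after the start. Capitals mark ACGTG and GCGTG, the core letters of the motif that HIF binds, as found on either strand, so that CACGT and CACGC are matches on the opposite strand. CACGTG, the E-box, holds ACGTG on both strands and counts as a match on each.
ALDOC promoter, chr17:28576846-28577145, minus strand: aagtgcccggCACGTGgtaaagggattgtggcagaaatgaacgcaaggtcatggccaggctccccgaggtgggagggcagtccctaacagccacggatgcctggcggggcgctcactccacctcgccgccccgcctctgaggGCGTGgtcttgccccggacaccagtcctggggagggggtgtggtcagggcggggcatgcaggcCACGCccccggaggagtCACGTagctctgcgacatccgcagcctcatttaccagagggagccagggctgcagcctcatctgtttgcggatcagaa
PFKFB4 promoter, chr3:48556754-48557053, minus strand: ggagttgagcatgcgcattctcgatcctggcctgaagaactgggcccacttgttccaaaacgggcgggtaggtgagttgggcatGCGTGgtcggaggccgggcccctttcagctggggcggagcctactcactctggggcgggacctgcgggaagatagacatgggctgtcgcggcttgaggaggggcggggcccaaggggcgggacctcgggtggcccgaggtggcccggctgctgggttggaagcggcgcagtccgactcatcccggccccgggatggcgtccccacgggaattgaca
GPI promoter, chr19:34364742-34365041, plus strand: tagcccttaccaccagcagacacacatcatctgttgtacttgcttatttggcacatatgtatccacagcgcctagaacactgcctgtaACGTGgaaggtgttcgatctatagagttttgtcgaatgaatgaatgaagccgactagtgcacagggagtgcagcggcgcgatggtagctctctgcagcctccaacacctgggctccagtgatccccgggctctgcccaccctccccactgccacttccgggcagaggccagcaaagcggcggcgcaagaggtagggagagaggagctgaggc
DDIT4 promoter, chr10:72273674-72273973, plus strand: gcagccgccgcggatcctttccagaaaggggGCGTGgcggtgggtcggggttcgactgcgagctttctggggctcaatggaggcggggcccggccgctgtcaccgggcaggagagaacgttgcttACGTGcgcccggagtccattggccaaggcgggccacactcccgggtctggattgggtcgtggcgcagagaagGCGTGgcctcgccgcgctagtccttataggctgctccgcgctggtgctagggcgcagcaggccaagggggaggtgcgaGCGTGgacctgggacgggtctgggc
ALDOC has 5 matches, of which a pair lies in 1 CACGTG, DDIT4 has 4, and PFKFB4 and GPI have 1 each. SLC16A3, the member that DESeq2 called higher, has several starts listed and its windows are not printed. They hold 0, 2, 0, 3 and 1 matches. RefSeq windows were matched for 37 of the 41 members, EGLN3 among them with no match, and 34 of those genes hold at least 1 match in some window. By window, 50 of 72 member windows hold a match (69.4%), with 67.9% of 56 windows of glycolysis members and 75% of 16 windows of HIF and hypoxia members. Over all 35116 windows the share is 48.4%, and over the 22199 windows of protein-coding genes it is 54.7%. A match describes these letters only, and binding was not measured.

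With all 6 libraries, the transporters were the role in which every member had a positive fold change, where 49.7% of all genes were negative. At an unadjusted p under 0.05, 3 of 4 were higher, beside 9.23% of all genes tested. That count of 3 was 2 when any 1 library other than ΔNSPs clone 1 was left out. SLC16A1 had a negative fold change without clone 1, without clone 3 or without Control line 3. SLC2A1 (ENSG00000117394, chr1:42925375-42959176, minus strand), the basal glucose transporter of most cells, measured 89.8, 136 and 113 CPM in ΔNSPs clones 1, 2 and 3, against 84.6, 74.4 and 74.8 CPM in Control lines 1, 2 and 3. Every clone was above every Control line, with clone 1 closest to them. SLC2A1 averaged 113 ± 22.9 CPM in the clones and 77.9 ± 5.78 CPM in the Control lines (SD, n = 3 each), a difference of 0.53 on the log2 scale (SE 0.16, adjusted p = 0.182 by edgeR). SLC2A3, a glucose transporter of high affinity, measured 20.6, 35.2 and 40.7 CPM in the clones, against 23.1, 19.2 and 23.0 CPM in the Control lines. Clones 2 and 3 were above all Control lines and clone 1 was among them, so the groups overlapped (log2 fold change 0.56, SE 0.24; edgeR adjusted p = 0.276).

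SLC16A3 (ENSG00000141526, chr17:82228397-82261129, plus strand) encodes the transporter by which highly glycolytic cells export lactate. It measured 339, 366 and 349 CPM in ΔNSPs clones 1, 2 and 3, against 268, 261 and 279 CPM in Control lines 1, 2 and 3. The 3 clones lay close together and all above the Control lines. The mean was 351 ± 13.8 CPM in the clones and 269 ± 8.88 CPM in the Control lines (SD, n = 3 each), a difference of 0.38 on the log2 scale (SE 0.09, adjusted p = 0.171 by edgeR). SLC16A3 rose by DESeq2's test (adjusted p = 0.0195), and the adjusted p over the 14 alternatives ran from 0.0195 to 0.532. SLC16A1, which moves lactate and pyruvate in both directions, averaged 190.5 ± 32.2 CPM in the clones and 183 ± 17.0 CPM in the Control lines, and the groups overlapped.

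In the upper part of glycolysis, from glucose to triose phosphates, 2 of 9 members were lower at p under 0.05 before adjustment. Over all genes tested that share was 8.6%. The other 7 averaged near the Control level or had low counts, and PFKL split the clones. ALDOC (ENSG00000109107, chr17:28573115-28577264, minus strand) encodes an aldolase best known from brain, which splits fructose bisphosphate. It measured 14.6, 25.2 and 24.96 CPM in ΔNSPs clones 1, 2 and 3, against 65.4, 67.2 and 92.1 CPM in Control lines 1, 2 and 3. No clone reached the lowest Control line, and clone 1 was the lowest of all. ALDOC averaged 21.6 ± 6.09 CPM in the clones, 28.8% of the 74.9 ± 14.9 CPM in the Control lines (SD, n = 3 each). The difference was -1.80 on the log2 scale (SE 0.23), with an edgeR p of 5.64e-05 before adjustment and an adjusted p = 0.145. ALDOC fell by DESeq2's test (adjusted p = 7.04e-11), and over the 14 alternatives the adjusted p ran from 7.04e-11 to 0.532, while the log2 fold change ran from -1.92 to -1.58. Another annotated gene on the opposite strand, ENSG00000265168, shares 10.1% of ALDOC's exon bases and averaged 9.58 CPM in the clones and 33.6 CPM in the Control lines. The strand setting of the counting is not given in the sources used here, and without strand the reads of the pair cannot be told apart.

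GPI (ENSG00000105220, chr19:34359480-34402413, plus strand) encodes the isomerase that turns glucose 6-phosphate into fructose 6-phosphate. It measured 1364, 990.4 and 1207 CPM in ΔNSPs clones 1, 2 and 3, against 1471, 1924 and 2358 CPM in Control lines 1, 2 and 3. All clones were below all Control lines, and clone 1 and Control line 1 were nearest to each other. The mean was 1187 ± 188 CPM in the clones and 1918 ± 443 CPM in the Control lines (SD, n = 3 each), a difference of -0.69 on the log2 scale (SE 0.19, adjusted p = 0.178 by edgeR). GPI fell by DESeq2's test (adjusted p = 0.0172), with an adjusted p from 0.0172 to 0.532 over the 14 alternatives. Over the 103 other genes in the 20 Mb window that holds GPI, the median log2 ratio to the Control average was 0.06, -0.17 and -0.18 in clones 1, 2 and 3.

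The hexokinases, which trap glucose in the cell, differed little. HK1 averaged 165 ± 6.70 CPM in the clones and 161 ± 11.1 CPM in the Control lines, and HK2 averaged 141 ± 13.2 CPM in the clones and 154 ± 12.02 CPM in the Control lines. Both pairs of groups overlapped. Of the phosphofructokinases, which catalyse the committed step, PFKP averaged 149 ± 9.31 CPM in the clones and 159.6 ± 12.3 CPM in the Control lines. PFKL measured 194, 301 and 330.3 CPM in clones 1, 2 and 3, against 317, 236 and 235 CPM in Control lines 1, 2 and 3, so that clones 2 and 3 stood with Control line 1 and clone 1 stood apart below. Genes around PFKL on chromosome 21 showed a median log2 ratio to the Control average of -0.05, 0.34 and 0.41 in clones 1, 2 and 3 and 0.16 in Control line 1, and their part in the PFKL values was not tested. PFKM, the muscle isozyme, was low, at 4.78, 5.46 and 6.16 CPM in the clones, against 4.18, 4.06 and 3.64 CPM in the Control lines. Its groups did not overlap, and its log2 fold change was 0.46 (SE 0.22, adjusted p = 0.308 by edgeR). SENP1, annotated on the opposite strand over 8.58% of the exon bases of PFKM, averaged 40.6 CPM in the clones and 35.6 CPM in the Control lines. Without strand the reads of PFKM and SENP1 cannot be told apart where they overlap. TPI1, which interconverts the triose phosphates, averaged 599 ± 37.2 CPM in the clones and 609 ± 23.9 CPM in the Control lines. ALDOA, the aldolase of most tissues, was counted at 1.91 ± 0.592 CPM in the clones and 2.25 ± 0.728 CPM in the Control lines (SD, n = 3 each). That count is uncertain, since 42.3% of its exon bases are shared with ENSG00000285043 on the same strand, and ENSG00000274904 on the opposite strand, which also overlaps it, averaged 207 CPM in the clones and 191 CPM in the Control lines.

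**Figure D2:**
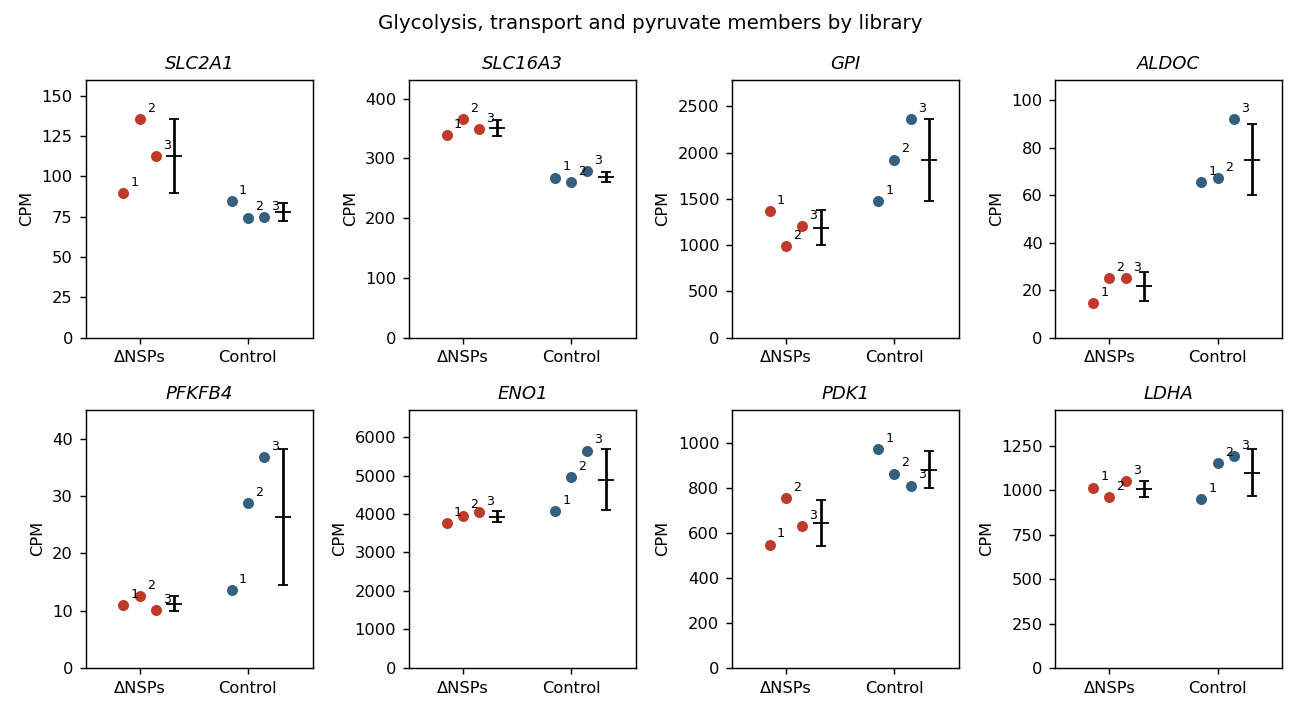
CPM of 8 glycolysis, transport and pyruvate members in each library. Numbered points are ΔNSPs clones (left) and Control lines (right), and the bar beside them is the mean with 1 SD (n = 3 each). SLC2A1 and SLC16A3 lie higher in all clones, GPI, ALDOC, PFKFB4, ENO1 and PDK1 lie lower in all clones, and LDHA overlaps between the groups.

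The PFKFB enzymes make and remove fructose 2,6-bisphosphate, the activator of phosphofructokinase, and both isozymes are textbook HIF targets. PFKFB4 (ENSG00000114268, chr3:48517684-48562015, minus strand) measured 10.99, 12.6 and 10.04 CPM in ΔNSPs clones 1, 2 and 3, against 13.5, 28.7 and 36.8 CPM in Control lines 1, 2 and 3. The clones lay close together, and Control line 1 was just above them and far from the other 2 lines. The mean was 11.2 ± 1.29 CPM in the clones, 42.5% of the 26.4 ± 11.8 CPM in the Control lines (SD, n = 3 each), a difference of -1.23 on the log2 scale (SE 0.33, adjusted p = 0.177 by edgeR). PFKFB4 fell by DESeq2's test (adjusted p = 0.00831), with an adjusted p from 0.00831 to 0.532 over the 14 alternatives, and without Control line 1 edgeR called it at an adjusted p of 0.0487. PFKFB3, the isozyme with the strongest kinase activity, averaged 80.3 ± 13.5 CPM in the clones and 70.5 ± 13.7 CPM in the Control lines, with overlap.

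The lower part of glycolysis, which yields ATP, held the members of highest expression, and its largest difference in level was at ENO1. ENO1, the enolase of most cells, measured 3769, 3958 and 4053 CPM in ΔNSPs clones 1, 2 and 3, against 4072, 4960.1 and 5647 CPM in Control lines 1, 2 and 3. The groups did not overlap, although clone 3 and Control line 1 differed by less than the spread within either group. ENO1 averaged 3927 ± 145 CPM in the clones and 4893 ± 789.8 CPM in the Control lines (SD, n = 3 each), a difference of -0.32 on the log2 scale (SE 0.13, adjusted p = 0.259 by edgeR). ENO2, the neuronal enolase, measured 8.57, 6.06 and 4.72 CPM in the clones, against 5.97, 12.9 and 15.7 CPM in the Control lines. Control line 1 lay within the range of the clones, and the log2 fold change was -0.83 (SE 0.37, adjusted p = 0.291 by edgeR).

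GAPDH, which makes NADH, averaged 4004 ± 459 CPM in the clones and 3763 ± 279 CPM in the Control lines (SD, n = 3 each). ENSG00000269968, annotated on the opposite strand over 14.2% of the exon bases of GAPDH, averaged 2309 CPM in the clones and 2125 CPM in the Control lines. PGK1, the first of the enzymes that make ATP, averaged 645 ± 146 CPM in the clones and 714 ± 92.0 CPM in the Control lines. PGAM1, the phosphoglycerate mutase, averaged 357 ± 10.2 CPM in the clones and 371 ± 39.7 CPM in the Control lines. The groups overlapped for each of these genes. PKM, the pyruvate kinase of most tissues, measured 2537, 3949.6 and 2874 CPM in clones 1, 2 and 3, against 2421, 2875 and 2918 CPM in the Control lines, so clone 2 alone stood above the rest. Genes around PKM on chromosome 15 had a median log2 ratio to the Control average of 0.03, 0.40 and -0.0020 in clones 1, 2 and 3, and the part of this window in the PKM value was not tested.

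Lactate dehydrogenase gave no call. LDHA, which favours lactate, averaged 1009 ± 44.6 CPM in the clones and 1099 ± 131 CPM in the Control lines. LDHB, which favours pyruvate, averaged 756 ± 4.29 CPM in the clones and 772 ± 50.2 CPM in the Control lines. The groups overlapped for both genes, with log2 fold changes of -0.12 (SE 0.11) for LDHA and -0.03 (SE 0.09) for LDHB.

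Among the genes of pyruvate entry and oxidation, 5 of 7 had a negative fold change, beside 49.7% of all genes tested, and 3 were lower at an unadjusted p under 0.05, beside 8.6%. That count of 3 was 1 without ΔNSPs clone 2, without Control line 2 or without Control line 3. PDK1 (ENSG00000152256, chr2:172555373-172608669, plus strand) encodes a kinase that switches the pyruvate dehydrogenase complex off and is a known HIF target. It measured 548, 752 and 629 CPM in ΔNSPs clones 1, 2 and 3, against 971, 862 and 809.6 CPM in Control lines 1, 2 and 3. All clones were below all Control lines, with Control line 1 the highest, unlike at GPI and PFKFB4. PDK1 averaged 643 ± 103 CPM in the clones and 881 ± 82.2 CPM in the Control lines (SD, n = 3 each), a difference of -0.45 on the log2 scale (SE 0.14, adjusted p = 0.187 by edgeR), and no alternative called it. ENSG00000225205, annotated on the opposite strand over 2.99% of the exon bases of PDK1, averaged 87.3 CPM in the clones and 131 CPM in the Control lines.

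MPC2 and MPC1 form the carrier that takes pyruvate into mitochondria. MPC2 measured 82.2, 59.9 and 78.01 CPM in the clones, against 86.4, 97.9 and 102 CPM in the Control lines. The groups did not overlap, and the log2 fold change was -0.38 (SE 0.14, adjusted p = 0.234 by edgeR). That difference was -0.25 without clone 2. DCAF6, annotated on the opposite strand over 22.5% of the exon bases of MPC2, averaged 79.3 CPM in the clones and 98.6 CPM in the Control lines, and without strand the pair cannot be told apart. MPC1 averaged 41.7 ± 3.96 CPM in the clones and 38.0 ± 2.23 CPM in the Control lines, with overlap and a log2 fold change of 0.13 (SE 0.11).

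PDHA1 and PDK3, the complex's catalytic subunit and a kinase that inhibits it, both lie on the X chromosome and split the clones alike. PDHA1 measured 287, 152 and 178 CPM in ΔNSPs clones 1, 2 and 3, against 218, 274 and 264 CPM in Control lines 1, 2 and 3. PDK3 measured 16.7, 7.58 and 8.10 CPM in the clones, against 13.6, 21.0 and 20.2 CPM in the Control lines. For both genes clones 2 and 3 were below all Control lines, and clone 1 was not. The 43 other genes in the window of PDHA1 had a median log2 ratio to the Control average of 0.06, -0.72 and -0.71 in clones 1, 2 and 3 and -0.29 in Control line 1, and the 21 in the window of PDK3 had 0.06, -0.75 and -0.93 in the clones and -0.30 in Control line 1. The part of these windows in both genes' values was not tested. The log2 fold change was -0.29 (SE 0.23) for PDHA1 and -0.76 (SE 0.33, adjusted p = 0.279 by edgeR) for PDK3. Without clone 1 it was -0.62 for PDHA1 and -1.23 for PDK3, and without clone 2 it was -0.11 for PDHA1 and -0.55 for PDK3. MAP3K15, annotated on the opposite strand over 21.3% of the exon bases of PDHA1, averaged 33.6 CPM in the clones and 37.7 CPM in the Control lines. PDHB, another subunit of the complex, averaged 144 ± 0.485 CPM in the clones and 139 ± 15.2 CPM in the Control lines, and DLAT, its acetyltransferase, averaged 110.2 ± 5.05 CPM in the clones and 114 ± 9.99 CPM in the Control lines (SD, n = 3 each).

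**Figure D3:**
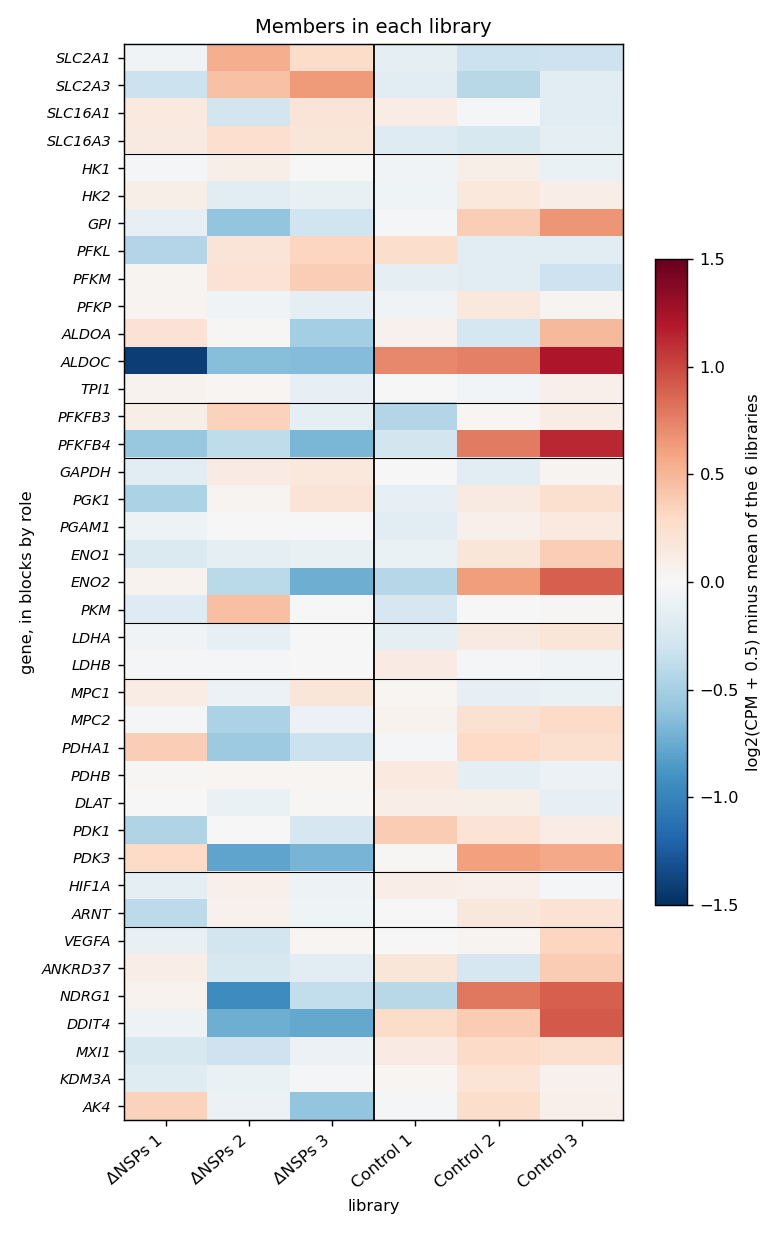
Level of each tested member in each library. Colour is log2(CPM + 0.5) minus the gene's mean over the 6 libraries, rows are genes in blocks by role, and columns are the 3 ΔNSPs clones followed by the 3 Control lines. ALDOC and DDIT4 are blue in all clones and red in all Control lines, and the hypoxia-response block is paler in Control line 1 than in Control lines 2 and 3.

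HIF1A, the oxygen-regulated subunit, was measured at 40.9, 47.4 and 42.8 CPM in ΔNSPs clones 1, 2 and 3, against 48.2, 47.6 and 44.2 CPM in Control lines 1, 2 and 3. ARNT, its constant partner, was measured at 42.2, 58.2 and 53.2 CPM in the clones, against 55.6, 62.8 and 64.8 CPM in the Control lines. The groups overlapped for both genes, with log2 fold changes of -0.10 (SE 0.11) for HIF1A and -0.25 (SE 0.14) for ARNT. HIF1A is controlled mainly through the stability of its protein, which was not measured.

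In the hypoxia-response group all 7 tested members had a negative fold change, and DDIT4 showed the largest. DDIT4 (ENSG00000168209, chr10:72273920-72276036, plus strand) encodes a stress-induced inhibitor of mTORC1 signalling, also known as REDD1. It measured 27.9, 17.6 and 17.1 CPM in ΔNSPs clones 1, 2 and 3, against 35.7, 38.7 and 56.4 CPM in Control lines 1, 2 and 3. All clones were below all Control lines, and clone 1 came closest to them. The mean was 20.9 ± 6.10 CPM in the clones, 47.9% of the 43.6 ± 11.2 CPM in the Control lines (SD, n = 3 each), a difference of -1.06 on the log2 scale (SE 0.24, adjusted p = 0.171 by edgeR). DDIT4 fell by DESeq2's test (adjusted p = 0.00341), with an adjusted p from 0.00341 to 0.532 over the 14 alternatives. DDIT4-AS1, annotated on the opposite strand over 41.2% of the exon bases of DDIT4, averaged 14.1 CPM in the clones and 30.1 CPM in the Control lines, so these values cannot be told apart without strand.

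MXI1, which encodes an antagonist of MYC, measured 34.8, 33.1 and 38.9 CPM in the clones, against 44.9, 50.4 and 48.8 CPM in the Control lines. Both groups were tight and did not overlap, with a difference of -0.43 on the log2 scale (SE 0.11, adjusted p = 0.171 by edgeR), and no alternative called it. KDM3A, a histone demethylase, measured 28.8, 30.6 and 32.5 CPM in the clones, against 33.5, 38.0 and 34.3 CPM in the Control lines. Its groups did not overlap either, but the log2 fold change was small, at -0.20 (SE 0.11, adjusted p = 0.371 by edgeR). Genes around KDM3A had a median log2 ratio to the Control average of 0.0025, 0.0058 and -0.33 in clones 1, 2 and 3, and the part of that window was not tested.

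NDRG1, a gene strongly induced by stress and low oxygen, measured 157, 78.1 and 117 CPM in ΔNSPs clones 1, 2 and 3, against 113, 263 and 281 CPM in Control lines 1, 2 and 3. Control lines 2 and 3 stood apart above all other libraries, and Control line 1 lay among the clones. The log2 fold change was -0.90 (SE 0.36, adjusted p = 0.256 by edgeR). Genes around NDRG1 had a median log2 ratio to the Control average of -0.03, -0.85 and 0.08 in clones 1, 2 and 3, and the part of this window in the low value of clone 2 was not tested. VEGFA, the angiogenic growth factor, averaged 87.9 ± 9.12 CPM in the clones and 104 ± 13.0 CPM in the Control lines, and 1 clone exceeded the lowest Control line. ANKRD37, a small ankyrin protein gene, averaged 6.93 ± 0.941 CPM in the clones and 8.19 ± 1.88 CPM in the Control lines, and UFSP2, annotated on the opposite strand over 35.2% of its exon bases, averaged 16.0 CPM in the clones and 22.1 CPM in the Control lines. AK4, a mitochondrial adenylate kinase, averaged 31.3 ± 10.1 CPM in the clones and 35.3 ± 3.51 CPM in the Control lines. Both overlapped between the groups. ADM, a vasodilator peptide gene, stood near the floor, at 0.286, 0.682 and 0 CPM in the clones, against 0.341, 1.38 and 0.781 CPM in the Control lines. The 0 counts in clone 3 allow up to 0.253 CPM, by counting error only.

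**Figure D4:**
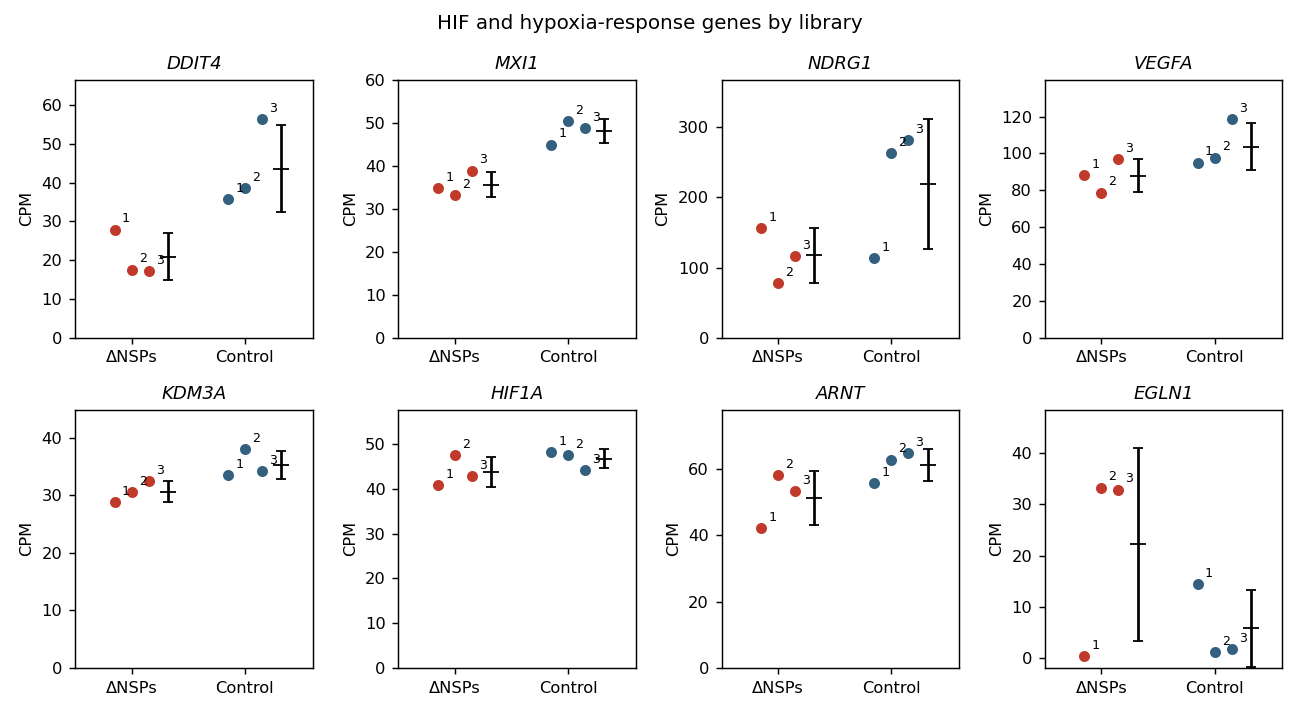
CPM in each library of 7 HIF and hypoxia members and of EGLN1. Numbered points are ΔNSPs clones (left) and Control lines (right), and the bar beside them is the mean with 1 SD (n = 3 each). DDIT4, MXI1 and KDM3A lie lower in all clones, Control line 1 lies among the clones for NDRG1, and EGLN1 is high in clones 2 and 3 and intermediate in Control line 1.

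Control line 1 was the lowest Control line in 7 of the 9 tested HIF and hypoxia members, and in 15 of the 30 glycolysis, transport and pyruvate members, beside 36.7% of all genes tested. The median log2 ratio of the HIF and hypoxia members to their mean over the 6 libraries was -0.11, -0.24 and -0.09 in ΔNSPs clones 1, 2 and 3, against 0.03, 0.21 and 0.24 in Control lines 1, 2 and 3. For the glycolysis, transport and pyruvate members it was -0.02, -0.01 and -0.01 in the clones, against -0.04, 0.08 and 0.09 in the Control lines. Control line 1 thus lay between the clones and the other Control lines for the first set and below the clones for the second. Together the glycolysis, transport and pyruvate members took 1.73%, 1.92% and 1.83% of all counts in the clones, against 1.80%, 2.02% and 2.17% in the Control lines. These shares overlapped between the groups.

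Shares within a family were compared per kb of exon. PFKFB4 made up 12.2%, 11.8% and 12.9% of the PFKFB pair in ΔNSPs clones 1, 2 and 3, against 19.8%, 27.5% and 31.4% in Control lines 1, 2 and 3, with PFKFB3 as the rest. The groups did not overlap, and the share averaged 12.3 ± 0.594% in the clones and 26.2 ± 5.87% in the Control lines (SD, n = 3 each). The share of PFKM among the phosphofructokinases also did not overlap, at 1.20 ± 0.0583% in the clones and 0.859 ± 0.0248% in the Control lines. That share rests on a low count that SENP1 on the opposite strand may affect. The other families kept similar proportions and overlapped between the groups. HK1 averaged 53.0% of the hexokinase pair in the clones and 50.1% in the Control lines, LDHA averaged 39.0% of the lactate dehydrogenase pair in the clones and 40.6% in the Control lines, and SLC16A3 averaged 52.3% of the lactate transporter pair in the clones and 46.5% in the Control lines. ENO1 supplied 99.8% of the enolase pair in the clones and 99.7% in the Control lines, PDK1 supplied 95.0% of the kinase pair in the clones and 94.1% in the Control lines, and SLC2A1 supplied 82.3% of the glucose transporter pair in the clones and 82.4% in the Control lines. The enolase pair is ENO1 with ENO2. It leaves out ENO3, which is not a member and averaged 642 CPM in the clones and 481 CPM in the Control lines. The ENO3 count is uncertain too, since PFN1 on the opposite strand overlaps 2.59% of its exon bases. The aldolase pair is left out because the ALDOA count is uncertain. With raw counts in place of counts per kb, LDHA averaged 57.1% of its pair in the clones and 58.6% in the Control lines. On that scale SLC16A3 averaged 64.9% of its pair in the clones and 59.5% in the Control lines. Which gene leads in these pairs thus depends on the scale. LDHB also shares 33.4% of its exon bases with AC010197.2 on the same strand, which has no count here.

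**Figure D5:**
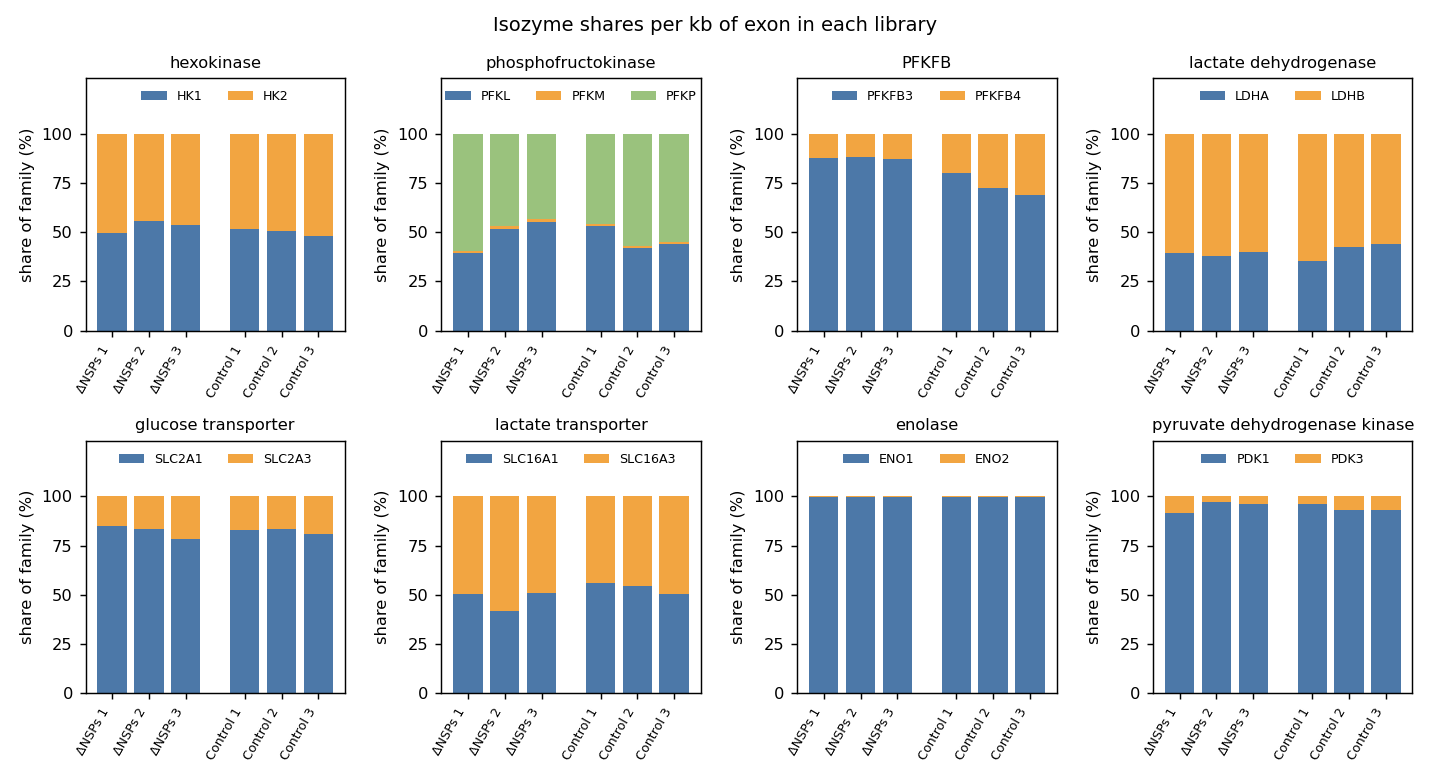
Share of each isozyme in its family, in percent of the level per kb of exon, in each ΔNSPs clone (left bars) and Control line (right bars). The PFKFB4 share is 11.8% to 12.9% in the clones and 19.8% to 31.4% in the Control lines, and the shares of HK1, LDHA, SLC2A1, SLC16A1, ENO1 and PDK1 overlap between the groups.

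Further genes of these pathways were counted from 3 lists. Of 37 other glycolysis and pyruvate genes, 22 were tested and edgeR called 0. Before adjustment 2 of the 22 were higher and 1 was lower at p under 0.05, beside 9.23% and 8.6% of all genes tested. The list had a median log2 fold change of -0.04. DESeq2 called GPD1L lower, beside 2.07% of all genes, and limma voom called 0. GPD1L, which encodes a relative of glycerol 3-phosphate dehydrogenase, measured 42.1, 25.1 and 36.0 CPM in the clones, against 51.9, 54.3 and 58.2 CPM in the Control lines. By highest expression the list's leading genes were ENO3, the muscle enolase, and BSG, the chaperone of the lactate transporters. ENO3 measured 547, 675 and 704 CPM in the clones, against 489.7, 477 and 476 CPM in the Control lines, with a difference of 0.42 on the log2 scale (SE 0.12, adjusted p = 0.178 by edgeR). It shares 2.59% of its exon bases with PFN1 on the opposite strand, which averaged 1456 CPM in the clones and 1058 CPM in the Control lines. Without strand the reads of ENO3 and PFN1 cannot be told apart where they overlap. BSG averaged 538 ± 90.6 CPM in the clones and 466 ± 48.0 CPM in the Control lines, with overlap.

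Of 15 other HIF pathway genes, 13 were tested and edgeR called 0. Before adjustment 2 of the 13 were higher and 0 were lower at p under 0.05, read against the same 9.23% and 8.6%. The list had a median log2 fold change of 0.13. DESeq2 and limma voom also called 0. HIF1AN, the asparagine hydroxylase that inhibits HIF, averaged 221 ± 10.3 CPM in the clones and 233 ± 5.55 CPM in the Control lines. VHL, the tumour suppressor that marks HIF-alpha for destruction, averaged 173 ± 8.10 CPM in the clones and 189 ± 9.34 CPM in the Control lines. Both overlapped between the groups. EGLN1, the main oxygen-sensing prolyl hydroxylase, was chosen after its values were seen, because it split the libraries within both groups. EGLN1 measured 0.428, 33.3 and 32.9 CPM in clones 1, 2 and 3, against 14.5, 1.23 and 1.82 CPM in Control lines 1, 2 and 3. Clones 2 and 3 were high and clone 1 was near the floor, and Control line 1 stood above the other 2 lines, so the log2 fold change of 1.93 had an SE of 1.25 (edgeR adjusted p = 0.444). Genes around EGLN1 had a median log2 ratio to the Control average of -0.14, 0.39 and 0.38 in the clones and 0.14 in Control line 1, and the part of this window was not tested.

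Of 41 other hypoxia-response genes, 30 were tested and edgeR called 0. Before adjustment 1 was higher and 12 were lower at p under 0.05, which is 3.33% and 40%, beside 9.23% and 8.6% of all genes tested. The median log2 fold change was -0.32, with 23 negative, and CPM did not overlap between the groups for 12 that were lower and 0 that were higher, beside 11.7% lower and 12.2% higher over all genes tested. limma voom called 0, and DESeq2 called 6, all lower, where it called 2.07% of all genes lower: P4HA1, BNIP3L, BNIP3, PLOD1, ZNF395 and FAM162A. P4HA1, a collagen prolyl hydroxylase subunit, measured 41.3, 42.5 and 45.4 CPM in the clones, against 87.9, 203 and 241 CPM in the Control lines. BNIP3L, a receptor for mitophagy, measured 35.6, 30.5 and 29.8 CPM in the clones, against 54.2, 79.9 and 86.8 CPM in the Control lines. In both genes the clones were close together and Control line 1 was the nearest to them. BNIP3, the sister gene of BNIP3L, averaged 36.9 ± 13.2 CPM in the clones and 83.8 ± 20.5 CPM in the Control lines. PLOD1, a collagen lysyl hydroxylase, averaged 109.5 ± 37.8 CPM in the clones and 230.2 ± 69.6 CPM in the Control lines. ZNF395, a zinc finger gene, averaged 45.5 ± 6.25 CPM in the clones and 84.7 ± 12.7 CPM in the Control lines. FAM162A, which encodes a mitochondrial protein, averaged 48.3 ± 3.51 CPM in the clones and 72.5 ± 13.3 CPM in the Control lines. None of these 6 overlapped between the groups. The leading genes of the list by expression were QSOX1, a sulfhydryl oxidase, at 599 ± 65.0 CPM in the clones and 649.8 ± 58.7 CPM in the Control lines, and TFRC, the transferrin receptor, at 363 ± 42.9 CPM in the clones and 281 ± 47.6 CPM in the Control lines. Control line 1 was the lowest Control line in 19 of the 30 genes tested.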

How the data were processed

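RNA-seq libraries of 3 ΔNSPs clones and 3 Control lines were analysed from the table of raw counts per Ensembl gene that the authors deposited, as whole numbers with no scaling. The submitters' processing notes name the build GRCh38.p12 and the tools HTSeq 0.11.1, SAMtools 1.5.9, HISAT2 2.0.0 and FastQC. Which annotation release and strand setting were used is not given in the sources used here. GENCODE v29 supplied symbols, positions, exon lengths and overlaps for the 18771 of 18798 genes whose Ensembl identifiers matched, and RefSeq supplied promoter windows.

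Genes were tested in R 4.3.3 with the quasi-likelihood F-test of edgeR 4.0.16 after TMM scaling and filterByExpr by group. Tests were two-sided, Benjamini-Hochberg adjustment ran over all 14797 genes tested, and calls were made under 0.05. Fold changes are ΔNSPs minus Control on the log2 scale, and an SE is the fold change over the root of F. CPM used the TMM-scaled totals. DESeq2 1.42.0 (Wald test), limma 3.58.1 (voom with sample quality weights), other size factors, other filters, the replicate number as a block and leaving out each library were alternatives. No pair of libraries of a group agreed within sampling noise, with a chi-square per degree of freedom of 7.65 at the lowest, and no batch is given in the labels. The p-values weigh the difference between the groups against the spread among libraries within each group. That spread is between clones for ΔNSPs and between lines for Control. A floor of 3 counts covers counting error only, as reads lacking molecular identifiers may repeat a molecule.

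Chromosome windows of 20 Mb used genes of at least 8 CPM on average, windows of at least 20 genes and a pseudocount of 0.5 CPM. Their values are given beside members where a clone's median went beyond 0.3. That was so for 6 of 38 members with such a window. The values for GPI are also given, although its window stayed within 0.3 in every clone. Overlap with another annotated gene was found for 26 members, on the opposite strand for 21, and 15 members have processed copies elsewhere in the genome, whose reads can be shared with them. Named genes were all members, the 3 targeted genes, and from each further list the genes past the edgeR or DESeq2 threshold (up to 6) and the 2 of highest mean CPM. The members and lists were chosen with earlier results of these data known.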

Additional observations from a re-analysis of the deposited data

How the results depend on the processing

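The number of calls changed with the tool and with some libraries, at 3 lines or clones a group. edgeR called 0 of the glycolysis, transport and pyruvate members, DESeq2 called 4, and leaving out 1 library at a time gave 0 to 5. For the HIF and hypoxia members the count was 0 with edgeR, 1 with DESeq2 and 0 to 1 without 1 library. For the 3 further lists it was 0 with edgeR, 7 with DESeq2 and 0 to 10 without 1 library. Of the 3 targeted genes edgeR called 1, DESeq2 called 2, and leaving out 1 library gave 0 to 3. The replicate number shared by clones and lines pairs nothing in the labels. Same-numbered libraries deviated in opposite directions (correlations of -0.43, -0.16 and -0.14), and no library correlated best with its own number. Between libraries of unlike number the correlations ran from -0.18 to 0.29. Deviations from a group mean cancel within the group, so these correlations cannot show whether same-numbered libraries shared a batch. With the replicate block edgeR called 0 targeted genes and 0 of all genes, where it called 3 genes without it. CTSG then had an adjusted p of 0.275, and 0.0932 without ΔNSPs clone 2, 0.232 without Control line 2 and 0.217 without Control line 3. The median log2 fold change of the HIF and hypoxia members was -0.36 to -0.20 over the fits that left out 1 library, with -0.36 without ΔNSPs clone 1. With other size factors or count filters edgeR still called 0 members and 0 genes of the further lists. At an unadjusted p under 0.05, the 2 other HIF pathway genes that were higher became 1 with upper-quartile factors or library totals, and the 1 lower gene of lower glycolysis became 2 with no count filter. The 3 lower genes of pyruvate entry and oxidation became 2 with upper-quartile factors, library totals or a filter at a mean of 1 CPM. Over all members the 10 lower genes became 9 in those same settings and 11 with no count filter. Over the fits that left out 1 library the log2 fold change passed through 0 for AK4 (-0.45 to 0.034), ALDOA (-0.44 to 0.046), HK1 (-0.0034 to 0.089), LDHB (-0.065 to 0.024), PDHB (-0.012 to 0.14), PFKL (-0.084 to 0.26), PGAM1 (-0.14 to 0.0073), PGK1 (-0.28 to 0.018), PKM (-0.016 to 0.31), SLC16A1 (-0.028 to 0.19) and TPI1 (-0.063 to 0.026). The isozyme share differences kept their size within 1 SD in every alternative run. The cause of these changes was not tested. Members near 3 counts, such as ADM, could not be compared at this depth.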
